A study of Homo sapiens with 18 samples.

Results

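The genes described here encode the cytoplasmic translation initiation factors eIF1 to eIF6 and elongation factors eEF1 and eEF2, with their close paralogs, binding proteins and modifying enzymes. They were chosen by name and level. A gene entered if its symbol began with EIF1 to EIF6 (without the EIF2AK kinases) or with EEF1 or EEF2, if it was protein-coding on an autosome or the X chromosome, and if 10 or more of the 18 libraries each held over 5 counts of it. Of 65 genes with such symbols, 59 entered. The 6 left out were EEF1G, EEF1E1-BLOC1S5, EIF4E1B, EIF4E3 and EIF4EBP3, which had too few counts, and 1 gene on the Y chromosome. EEF1G, a subunit of the eEF1B complex, shares 99.7% of its exon bases with other genes in the annotation used here. Whether this overlap lowered its count was not tested. The same filter on counts left 15576 genes of the 63677 in the table, and every adjusted p below was computed over those 15576.

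Translation begins when eIF2 carries the initiator tRNA to the small ribosomal subunit, where eIF1, eIF1A and eIF5 govern the choice of the start codon and the scaffold eIF3 holds the complex together. The mRNA is brought in through its cap by eIF4E, eIF4G and the helicase eIF4A with its partner eIF4B, and the 4E-BP proteins block that step by binding eIF4E. eEF1A then delivers each aminoacyl-tRNA and eEF2 moves the ribosome along. Both are modified by enzymes, and among these the kinase eEF2K switches eEF2 off. Many of these mRNAs, together with those of all ribosomal proteins, start with a run of pyrimidines, the 5′ terminal oligopyrimidine (TOP) motif, by which the mTOR pathway adjusts their translation.

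The RNA came from NCI-H1299, a human lung cancer line labelled as lung adenocarcinoma, grown in low-glucose DMEM with serum and used at passages 12 to 14. The study asked what the T-box transcription factors of the TBX2 subfamily do when put back into such cells. Plasmids carried human TBX2 or TBX4 with a Flag tag, human TBX3 with an HA tag, or mouse Tbx5 with an HA tag, and each was delivered by transient lipid transfection, so that not every cell of a dish need carry it. There were 3 libraries for each of TBX2, TBX3, TBX4 and TBX5, 3 for the empty vector (EV) and 3 named Ctl, whose treatment the labels do not give. Each TBX group was set against the 6 EV and Ctl libraries together, because the methods list controls without splitting them. The 4 comparisons therefore share their controls and are not independent of one another. The labels do not say that replicates were separate cultures, so p-values measure the spread between these libraries, which may be technical.

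Libraries held 7365221 to 11743179 counts. The floor of detection was taken as 3 counts, which equalled 0.255 to 0.407 CPM, the counts scaled to a common library size. That floor was scaled by library totals, without the TMM scaling of the levels below. In each TBX2, TBX3 and TBX4 library the transfected gene had 27704 or more counts, and in the TBX5 libraries human TBX5 had 1161 to 1302 counts, from a mouse plasmid. One title is mixed: it has the sample number of the TBX4 group and the letter c, followed by the name TBX5. This library was kept as TBX4 replicate c, and it held 85197 counts on TBX4 and 1 on TBX5. The line's keratins KRT8 and KRT18 were present at 119 to 613 and 292 to 1155 counts, VIM at 4051 to 13492. EPCAM, CDH1, KRT19, NKX2-1 and SFTPC had at most 4 counts in any library, and NAPSA at most 10, so several defining epithelial and lung adenocarcinoma markers were near 0. Markers of leukocytes, fibroblasts and red cells had at most 6 counts. A single gene that the annotation does not name, ENSG00000266658, took 10.7 to 53.5% of the counts of a library, 12.4 to 40.2% in the controls, 13.2 to 18.6% with TBX4 and 22.5 to 53.5% with TBX5. The members together took 0.786 to 1.81%. Levels are given below as CPM after TMM scaling, which limits the weight of such a gene.

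Per kilobase of transcript, the factor mRNAs of the 6 control libraries covered a wide range. EEF1A1, the main carrier of aminoacyl-tRNA, was highest at 1493 ± 71.1 CPM per kilobase (SD, n = 6). The translocase EEF2 followed at 482.2 ± 17.8, then EEF1B2, which recycles eEF1A, at 205.4 ± 9.57 and EIF3K, a small subunit of eIF3, at 199.6 ± 9.55, a pair that did not differ beyond their spread. EIF4A2, a helicase of the cap complex, reached 55.7 ± 2.76 CPM per kilobase, and its near-identical paralog EIF4A1 6.12 ± 0.438. EIF4A1 has 13 numbered pseudogenes and shares 47.4% of its exon bases with other genes, and counting at the default setting drops reads that fit several places. The lowest were EIF5AL1 at 0.441 ± 0.0939, a copy of EIF5A, and EIF3CL at 0.404 ± 0.223, whose near-identical copy EIF3C stood at 1.87 ± 0.426. EEF1A1 has 49 numbered pseudogenes and EIF4B 9, and their levels carry the same uncertainty.

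More members fell than rose in every TBX comparison. In bulk RNA, fewer cells of a type and less RNA per cell cannot be told apart, and the same holds for a small change in all cells and a larger one in transfected cells. With TBX2, 22 members fell and 4 rose at an adjusted p under 0.1 by edgeR's quasi-likelihood test. That is 37.3% and 6.78% of the 59, and of all genes tested 15.6% fell and 17.0% rose. With TBX3, 10 members fell and 2 rose, which is 16.9% and 3.39%, against 6.40% and 8.47% of all genes. With TBX4, 7 members fell and 0 rose, which is 11.9% lower, against 6.07% lower and 6.97% higher for all genes. There DESeq2 called 8 members, all lower, and 16 had an unadjusted p under 0.05 by edgeR. With TBX5, 8 members fell and 2 rose, which is 13.6% and 3.39%, against 6.12% and 6.55% of all genes, and DESeq2 called 6 there, 4 lower and 2 higher. The share of members that rose was below the share of all genes in each comparison. Without TBX4 replicate a only 3 members were called with TBX4. With TBX5 the count went from 10 to 5 without TBX5 replicate c and to 6 without TBX5 replicate a or b or EV replicate a or b.

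The changes were small. In the order TBX2 to TBX5, the 59 members had a median log2 fold change of -0.11, -0.07, -0.04 and -0.07, where the median of all genes lay within 0.01 of 0. Members with all 3 TBX libraries below all 6 controls numbered 17, 13, 7 and 8 in the same order, and those with all 3 above numbered 5, 3, 1 and 2. Over all genes, 24.5%, 14.5%, 12.6% and 14.0% had all 3 libraries beyond the controls in either direction. In all, 32 members were called in at least 1 comparison, which is 54.2%, against 44.3% of all genes. None was called in both directions, where 0.828% of all genes were. Called lower at least once were 25 members (42.4%, against 20.7% of all genes) and called higher 7 (11.9%, against 24.4%). EIF4B, EIF3K, EIF4G3 and EIF1AX were called lower in all 4 comparisons, which is 6.78% of the members, against 1.24% of all genes, and EEF1A1 in 3. None was called higher in all 4, against 1.21% of all genes. The comparisons share their controls, so calls in several of them are not independent. The study had itself picked EIF4B, EIF3K, EIF1AX and EEF1A1 from these libraries, so their calls are not independent evidence of a direction.

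**Figure D1:**
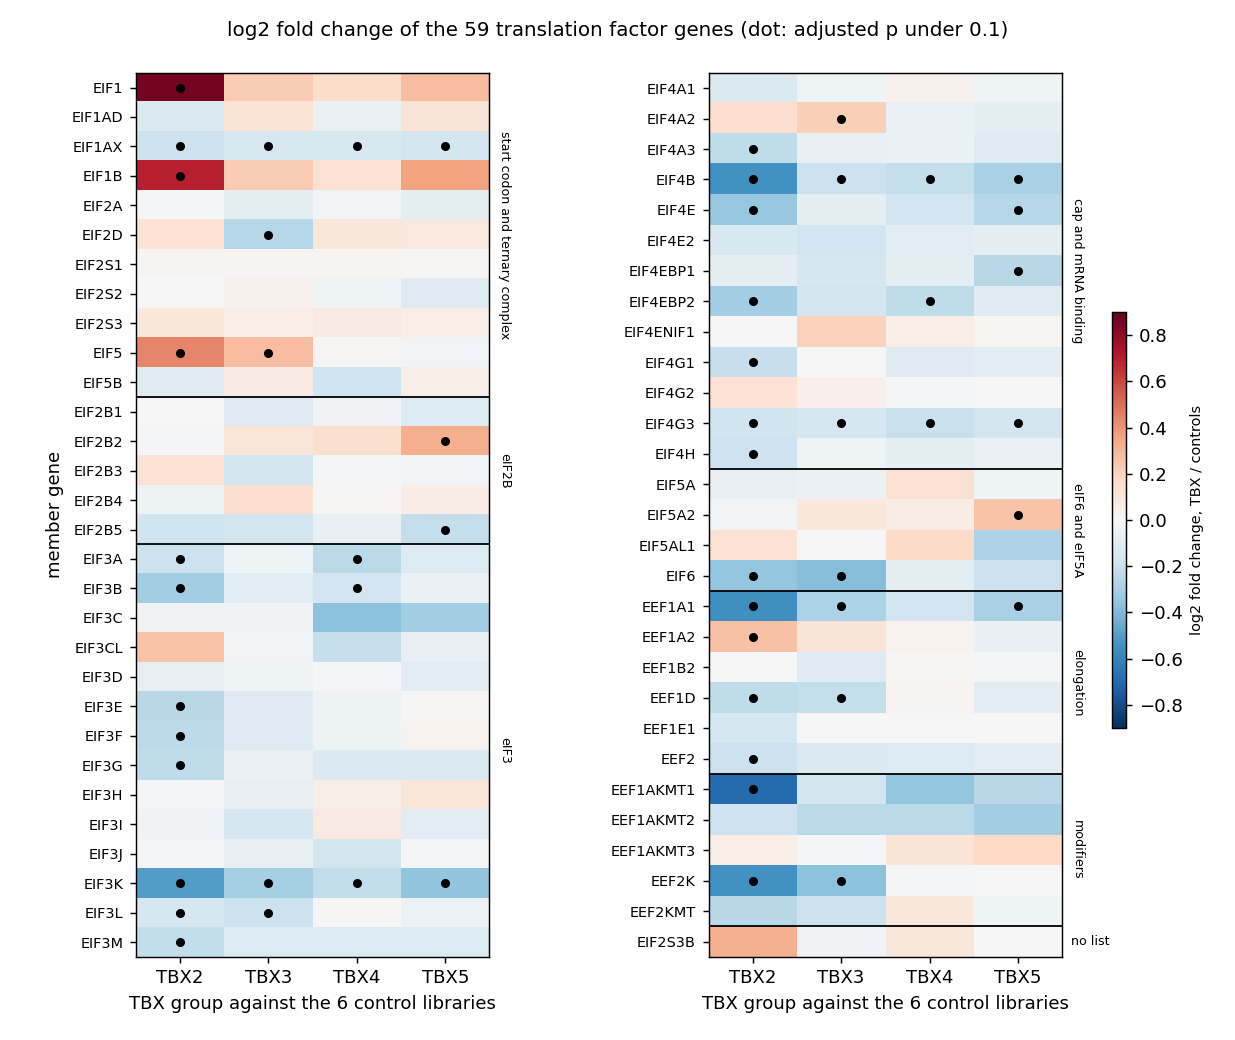
Each row is one of the 59 factor genes, ordered by role, and each column a TBX group against the 6 control libraries. Colour gives the log2 fold change (red higher, blue lower with the TBX) and a black dot marks an adjusted p under 0.1. Most dots lie on blue cells, and the 8 on red cells lie at EIF1, EIF1B, EIF5 and EEF1A2 with TBX2, EIF5 and EIF4A2 with TBX3, and EIF2B2 and EIF5A2 with TBX5. The plot uses TMM scaling, and under scaling by library totals the TBX4 column turns mostly higher.

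The scaling of the libraries decides how many members pass. With library totals in place of TMM, 3 members were called with TBX2 (2 higher, 1 lower), 0 with TBX3, 3 with TBX4 (all higher) and 0 with TBX5. That scaling shifts the median log2 fold change of all genes by 0.25 with TBX4 and by -0.31 with TBX5, and the members' medians with it, to 0.22 and -0.38. Each stayed below the median of all genes. Under that scaling all 7 members called lower with TBX4 (EIF1AX, EIF3A, EIF3B, EIF3K, EIF4B, EIF4EBP2 and EIF4G3) change sign, as does EIF5A2 with TBX5, and 57 of the 59 members are higher with TBX4, against 23 under TMM. With totals that leave out ENSG00000266658 and the TBX genes, 26, 11, 8 and 11 members were called with TBX2, TBX3, TBX4 and TBX5, near the counts under TMM. Directions below are relative to the typical gene.

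**Figure D2:**
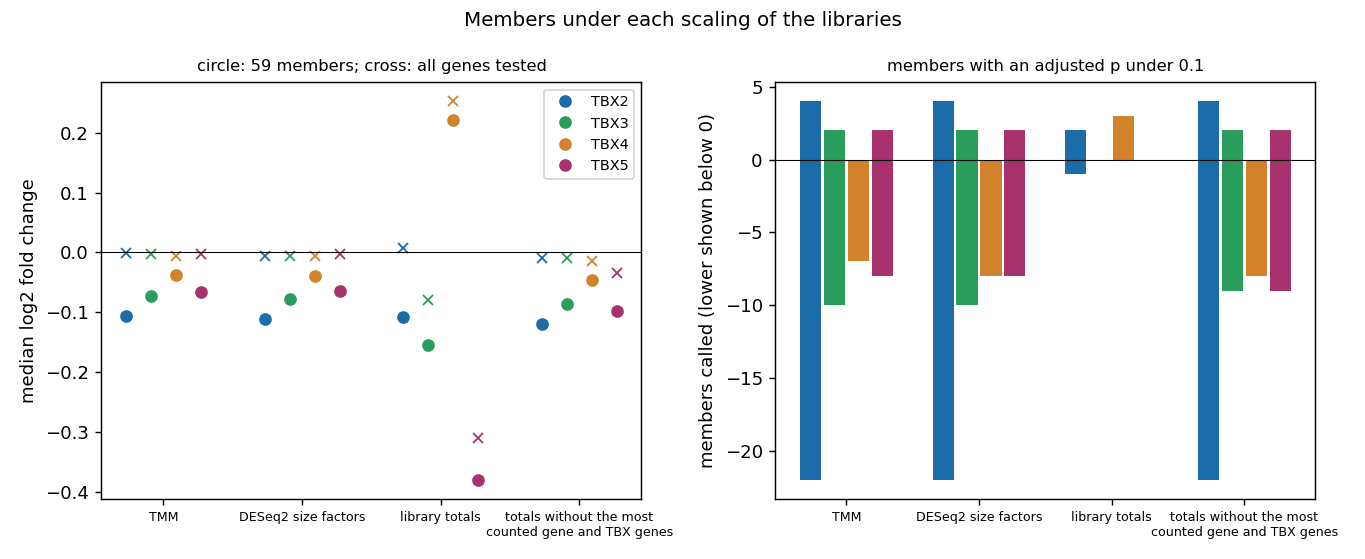
Left, the median log2 fold change of the 59 members (circles) and of all genes tested (crosses) for each TBX group under 4 scalings. Right, members called higher (above 0) and lower (below 0) at an adjusted p under 0.1. Under library totals both medians with TBX4 lie above 0, and the 3 members called are higher.

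The start site sequences show which members carry a TOP-like start. The 46 members with an entry among RefSeq promoters (GRCh38.p14) were searched for a C at the annotated first base followed by at least 4 pyrimidines, a rule chosen after the fold changes were known. Of these, 13 had it in at least 1 entry, which is 28.3%, against 7.32% of the 10735 tested genes with an entry. Shown are 30 bases around the start of members picked by hand with their fold changes known, 10 before it and 20 from it. They read 5′ to 3′ on the gene's strand, with the C and its pyrimidine run in capitals. The choice does not represent all members. EEF1B2, EIF2A and EIF2S3, which have the run and were called in no TBX comparison, are not shown. Nor are EIF1AX and EIF4G3, which were called lower and lack it. Of the members shown, the first 7 have the run, and the last 5 do not.
EEF1A1, chr6:73521013-73521042, minus strand: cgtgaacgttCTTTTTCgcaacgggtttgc
EEF2, chr19:3985444-3985473, minus strand: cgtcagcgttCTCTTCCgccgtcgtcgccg
EIF4B, chr12:53006446-53006475, plus strand: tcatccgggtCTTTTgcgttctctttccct
EIF3K, chr19:38619178-38619207, plus strand: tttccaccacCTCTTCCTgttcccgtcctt
EIF3F, chr11:7987327-7987356, plus strand: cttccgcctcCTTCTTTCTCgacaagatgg
EIF3M, chr11:32583821-32583850, plus strand: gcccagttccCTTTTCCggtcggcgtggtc
EIF4A2, chr3:186783567-186783596, plus strand: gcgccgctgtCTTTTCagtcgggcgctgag
EIF1, chr17:41688875-41688904, plus strand: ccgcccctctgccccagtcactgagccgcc
EIF1B, chr3:40309697-40309726, plus strand: cattttgtgcgagaagccgcagcgccgcct
EIF5, chr14:103334227-103334256, plus strand: ggcgttgttcagtcagagcgagaacattcc
EIF6, chr20:35284698-35284727, minus strand: tggtaagctggtgtgaggggaacctgggag
EEF2K, chr16:22206268-22206297, plus strand: gcccgcttctgctcaacctagaccagcccc

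Among the 13 members with a TOP-like start, 6 fell and 0 rose with TBX2, 4 fell and 1 rose with TBX3, 2 fell and 0 rose with TBX4, and 3 fell and 0 rose with TBX5. The one that rose was EIF4A2. Among the 33 members without it, the counts lower and higher were 10 and 3, 4 and 1, 4 and 0, and 4 and 2. The median log2 fold changes with and without the start were -0.08 and -0.11 for TBX2 and -0.12 and -0.04 for TBX3. They were -0.05 and -0.03 for TBX4, and -0.09 and -0.04 for TBX5. Among the members with an entry the order thus differed between TBX2 and the others. EEF1D, EIF3E and EIF3H, whose mRNAs are known TOP mRNAs, had no entry and were in neither set. Their log2 fold changes with TBX2 were -0.23, -0.25 and -0.01. In the order TBX2 to TBX5, 24.9%, 12.1%, 7.25% and 10.8% of the 786 tested genes with a TOP-like start fell, and 17.3%, 7.17%, 6.78% and 6.93% of the 9949 without it. The T-box motif AGGTGTGA was searched on both strands of the 300 bases around each start. It lay in 1 of the 61 entries of the 46 members, that of EIF3D, and in 0.98% of all entries. A match is a description of the letters, and start sites differ between cells and annotations.

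Factors of start codon choice held the members that rose most. EIF1, which keeps the scanning ribosome from starting at the wrong codon, lies on chromosome 17 from 39845137 to 39848920 (GRCh37). Its level was 130.9, 78.3 and 154.2 CPM in the TBX2 libraries, and 42.7, 68.8 and 77.6 CPM at the lowest, median and highest of the 6 controls. All 3 TBX2 libraries were above the controls, replicate b only just. The log2 fold change was 0.86 ± 0.15 (SE) with an edgeR adjusted p of 0.000139, and it was 0.66 without TBX2 replicate c, with an adjusted p of 0.0034. EIF1B, its paralog on chromosome 3, read 17.3, 11.7 and 21.1 CPM with TBX2 against 8.23, 9.26 and 12.6 in the controls, and replicate b overlapped them. It rose by 0.70 ± 0.15 (adjusted p 0.00175). In both genes replicate b was the lowest and replicate c the highest of the TBX2 libraries. With TBX5, replicate a was the highest for both, at 107.2 CPM for EIF1 and 15.2 for EIF1B, while the other TBX5 libraries lay at 62.9 and 65.1 and at 10.9 and 11.5. Neither gene passed the test with TBX5, at log2 fold changes of 0.28 and 0.36.

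EIF5, the GTPase-activating protein of eIF2, lies on chromosome 14 and rose with both TBX2 and TBX3. It read 476.9, 484.7 and 543.2 CPM with TBX2 and 424.2, 445.0 and 476.9 with TBX3, and the controls ran from 349.8 through a median of 369.2 to 387.1. All 6 of these TBX libraries were above all 6 controls. EIF5 rose by 0.44 ± 0.06 (adjusted p 1.05e-05) and by 0.28 ± 0.06 (adjusted p 0.00223) on the log2 scale. With TBX4 the level was 373.2, 362.7 and 384.4 CPM and with TBX5 381.6, 350.8 and 356.0, within the range of the controls. EIF5 was the only member called higher in 2 comparisons.

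EIF1AX, the X-linked eIF1A that works beside eIF1, fell slightly in all 4 comparisons. Its control level was tight, 98.7 to 105.7 CPM with a median of 103.7. It read 88.1, 92.0 and 90.6 CPM with TBX2, 96.5, 90.8 and 93.5 with TBX3, 94.1, 92.9 and 94.7 with TBX4, and 93.8, 91.5 and 91.9 with TBX5. All 12 TBX libraries lay below all 6 controls. Log2 fold changes were -0.20, -0.14, -0.14 and -0.16 with SEs of 0.05 to 0.06, and the adjusted p of 0.0129, 0.0965, 0.0847 and 0.0779 left little room: the calls with TBX3, TBX4 and TBX5 each held without Ctl replicate c and were lost without any of the other 8 libraries. EIF2D, which can place initiator tRNA without eIF2, fell with TBX3 by 0.26 ± 0.08 on the log2 scale (adjusted p 0.0288), at 22.7, 22.6 and 23.3 CPM against 25.1 to 30.1 in the controls. The 3 subunits of eIF2 passed no test. EIF2S1, whose phosphorylation shuts initiation down, read 149.3 to 175.5 CPM over the 12 TBX libraries and 152.3 to 164.4 in the controls, at log2 fold changes of 0.01 to 0.03 with SEs of 0.05 to 0.06. EIF2S2 lay at -0.11 to 0.04, with all 3 TBX5 libraries below the controls (adjusted p 0.216), and EIF2S3 at 0.06 to 0.09. In all, 3 of the 11 genes of this role rose and 1 fell with TBX2, 1 rose and 2 fell with TBX3, and 1 fell with each of TBX4 and TBX5. Of all genes, 17.0%, 8.47%, 6.97% and 6.55% rose and 15.6%, 6.40%, 6.07% and 6.12% fell, in the order TBX2 to TBX5.

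**Figure D3:**
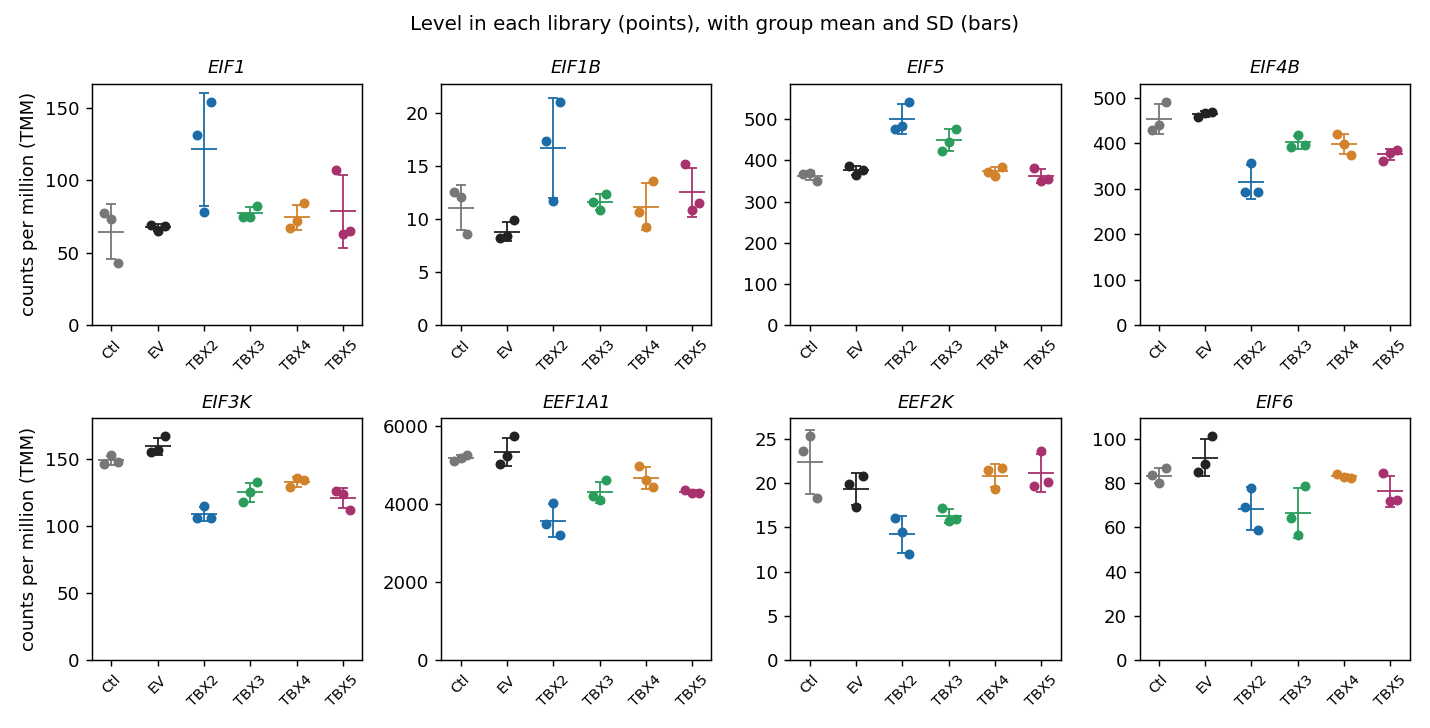
TMM-scaled CPM of 8 members in each library (points), with the mean and SD of each group of 3 (bars), from 0. EIF1 and EIF1B reach their highest values in TBX2 replicates a and c, EIF5 stands above the controls with TBX2 and TBX3, and EIF4B, EIF3K and EEF1A1 stand below them in all 12 TBX libraries.

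eIF2B, the exchange factor that reloads eIF2 with GTP, changed little. None of its 5 subunits passed the test with TBX2, TBX3 or TBX4, at log2 fold changes of -0.18 to 0.15. EIF2B2 rose with TBX5, where it read 34.4, 41.1 and 39.8 CPM against 27.9, 29.9 and 32.6 at the lowest, median and highest control, without overlap. Its log2 fold change was 0.33 ± 0.08 (adjusted p 0.0104). The catalytic subunit EIF2B5 fell with TBX5 by 0.21 ± 0.08 on the log2 scale (adjusted p 0.0904), at 24.0, 24.0 and 22.7 CPM against 25.6 to 28.8 in the controls, a call that held without Ctl replicate a and was lost without any of the other 8 libraries.

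The eIF3 scaffold was the role with the most genes tested and the most called lower with TBX2. With TBX2, 7 of the 13 genes that bind the cap and the mRNA also fell. Of all genes 15.6%, 6.40%, 6.07% and 6.12% fell with TBX2, TBX3, TBX4 and TBX5. Of the 14 eIF3 genes 8, 2, 3 and 1 fell in the same order, and none rose. The median log2 fold change was -0.17, -0.09, -0.13 and -0.08, and 13, 14, 11 and 11 of the 14 were lower, called or not. EIF3K led. It lies on chromosome 19 from 39109722 to 39127595 (GRCh37) and its start, printed above, has a run of 8 pyrimidines. Its level was 105.6, 114.8 and 105.8 CPM with TBX2, 117.9, 124.9 and 132.3 with TBX3, 128.6, 135.9 and 133.9 with TBX4, and 126.2, 123.8 and 111.8 with TBX5. The controls ran from 146.2 through 153.9 to 166.7 CPM, above all 12. In the same order log2 fold changes were -0.50 ± 0.06 (adjusted p 2.03e-06), -0.30 ± 0.06 (0.00148), -0.22 ± 0.05 (0.0113) and -0.35 ± 0.06 (0.000714). These 4 calls held on leaving out each library in turn, but under library totals the value with TBX4 turned to 0.03.

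EIF3A, the large subunit that organises the complex, fell with TBX2 and TBX4. It read 205.6, 194.3 and 221.1 CPM with TBX2 and 189.1, 198.4 and 214.0 with TBX4, against 210.9, 238.7 and 256.6 at the lowest, median and highest control, so that 1 library of each group overlapped the controls. The log2 fold changes were -0.19 ± 0.07 (adjusted p 0.0408) and -0.24 ± 0.06 (adjusted p 0.0154). The first call was lost without TBX2 replicate a or b, at an adjusted p of up to 0.162, and the second without TBX4 replicate a, at 0.12. EIF3B, another core subunit, fell with the same pair by 0.31 and 0.17 on the log2 scale, the second call lost without TBX4 replicate a or c. EIF3E, EIF3F, EIF3G and EIF3M fell with TBX2 and EIF3L with TBX2 and TBX3, by 0.15 to 0.25 on the log2 scale. The calls of EIF3E, EIF3F and EIF3M held on leaving out each library in turn. That of EIF3G was lost without TBX2 replicate a or c, Ctl replicate c or EV replicate a or b, and those of EIF3L without TBX2 replicate c and TBX3 replicate b. EIF3L shares 51.8% of its exon bases with other genes.

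Members that bind the cap and the mRNA fell in every comparison where they were called, with 1 exception. Of 13 tested, 7, 2, 3 and 4 fell with TBX2, TBX3, TBX4 and TBX5, and EIF4A2 rose with TBX3. The shares of all genes that fell were 15.6%, 6.40%, 6.07% and 6.12%, and 8.47% rose with TBX3. EIF4B, which stimulates the helicase, lies on chromosome 12 from 53400066 to 53435999 (GRCh37). It read 292.3, 356.4 and 292.9 CPM with TBX2, 391.6, 418.3 and 396.6 with TBX3, 418.9, 397.9 and 374.6 with TBX4, and 361.3, 379.0 and 384.5 with TBX5. The controls ran from 429.4 through 461.8 to 491.2 CPM, above all 12 TBX libraries. EIF4B had log2 fold changes of -0.55 ± 0.07 (adjusted p 4.87e-06), -0.19 ± 0.06 (0.0404), -0.21 ± 0.06 (0.0188) and -0.29 ± 0.06 (0.00277). The call with TBX3 was lost without TBX3 replicate a (adjusted p 0.165) and that with TBX4 without TBX4 replicate c (0.146).

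EIF4E, the cap-binding protein itself, fell with TBX2 and TBX5. It read 35.3, 40.5 and 38.5 CPM with TBX2 and 38.3, 39.1 and 44.3 with TBX5, against 42.7, 48.2 and 52.3 at the lowest, median and highest control. The TBX2 libraries did not overlap the controls, and 1 TBX5 library did. EIF4E had log2 fold changes of -0.34 ± 0.07 (adjusted p 0.00139) and -0.26 ± 0.08 (adjusted p 0.0378), the second lost without TBX5 replicate a or b (up to 0.174). The paralog EIF4E2, which binds the cap but not eIF4G, passed no test, at log2 fold changes of -0.17 to -0.09.

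The proteins that hold eIF4E back were called in different comparisons. EIF4EBP2 fell with TBX2 and TBX4, at 60.5, 51.2 and 63.3 CPM and 57.8, 62.5 and 64.4 CPM against 64.8, 71.7 and 79.4 in the controls, without overlap. Its log2 fold changes were -0.31 ± 0.08 (adjusted p 0.00402) and -0.23 ± 0.06 (adjusted p 0.0239), and against the EV controls alone the second had an adjusted p of 0.195. It also lost its call without TBX4 replicate a, at 0.168. EIF4EBP1 fell with TBX5, at 28.7, 28.4 and 30.7 CPM against 30.7, 34.9 and 39.5, by 0.25 ± 0.09 on the log2 scale (adjusted p 0.0802), with TBX5 replicate c at the edge of the controls. This call held without Ctl replicate a or c and was lost without any of the other 7 libraries. EIF4EBP1 and EIF4EBP2 had adjusted p of 0.511 and 0.307 in the test among the 4 TBX groups.

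The scaffold eIF4G has 3 genes, and with TBX2 one of them lay above the controls and the other two below. EIF4G1 read 365.5, 368.0 and 380.0 CPM against 403.5, 426.1 and 461.0 in the controls and fell by 0.20 ± 0.06 on the log2 scale (adjusted p 0.0145). EIF4G2, also called DAP5, which works without eIF4E, read 583.1, 552.8 and 605.2 CPM against 522.9, 526.5 and 542.7. It was above all controls but did not pass, at 0.13 ± 0.06 (adjusted p 0.104). EIF4G3 was called lower in all 4 comparisons, at 91.2 to 104.8 CPM over the 12 TBX libraries against 105.0 to 114.8 in the controls, with no overlap. Its log2 fold changes were -0.18, -0.15, -0.20 and -0.17 with adjusted p of 0.0234, 0.0863, 0.0166 and 0.0923. The call with TBX3 held without TBX3 replicate a or EV replicate c and that with TBX5 without TBX5 replicate b or EV replicate c, and each was lost without any of the other 7 libraries. EIF4A2 read 119.6, 123.4 and 123.2 CPM with TBX3 against 97.9, 105.5 and 112.1 and rose by 0.22 ± 0.06 (adjusted p 0.0131). EIF4A1, EIF4ENIF1, the transporter of eIF4E into the nucleus, and EIF4E2 passed no test, and EIF4A3 and EIF4H fell with TBX2 by 0.23 and 0.19 on the log2 scale. Those calls were lost without TBX2 replicate a, and that of EIF4A3 also without TBX2 replicate c.

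EIF6, which keeps the large ribosomal subunit from joining too early, fell with TBX2 and TBX3. It read 69.1, 77.8 and 58.6 CPM with TBX2 and 64.2, 56.4 and 78.5 with TBX3, against 79.97, 85.8 and 101.2 at the lowest, median and highest control. None of these 6 libraries reached the controls. Log2 fold changes were -0.35 ± 0.08 (adjusted p 0.00286) and -0.38 ± 0.08 (adjusted p 0.00372). EIF5A2, a paralog of the hypusinated factor eIF5A, rose with TBX5, at 33.3, 31.0 and 36.1 CPM against 25.2, 27.9 and 29.9. Its log2 fold change was 0.26 ± 0.08 (adjusted p 0.0417), and 0.21 with an adjusted p of 0.206 without TBX5 replicate c. EIF5A itself passed no TBX comparison, at log2 fold changes of -0.08 to 0.14.

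Of the 6 elongation genes 3 fell and 1 rose with TBX2, 2 fell with TBX3, none was called with TBX4 and 1 fell with TBX5. Among all genes 15.6%, 6.40%, 6.07% and 6.12% fell in the order TBX2 to TBX5, and 17.0% rose with TBX2. EEF1A1 lies on chromosome 6 from 74199031 to 74235310 (GRCh37), and its start, printed above, has a run of 7 pyrimidines. It read 3489, 4018 and 3197 CPM with TBX2, 4204, 4088 and 4598 with TBX3, 4957, 4593 and 4419 with TBX4, and 4345, 4277 and 4264 with TBX5. The controls ran from 5020 through 5188 to 5725 CPM, above all 12. The log2 fold changes were -0.55 ± 0.08 (adjusted p 3.79e-05), -0.29 ± 0.07 (0.0137), -0.18 ± 0.07 (0.105, not past the threshold) and -0.29 ± 0.07 (0.00833). EEF1A2, the paralog of muscle and nerve, rose with TBX2, at 70.9, 72.3 and 69.6 CPM against 54.8, 60.5 and 61.8, by 0.27 ± 0.06 (adjusted p 0.00285). EEF2 fell with TBX2 by 0.20 ± 0.07 on the log2 scale (adjusted p 0.0364), and by 0.15 with an adjusted p of 0.168 without TBX2 replicate c. EEF1D, the exchange factor subunit, fell with TBX2 and TBX3 by 0.23 and 0.21 on the log2 scale, and it shares 34.0% of its exon bases with other genes. Those calls were lost without TBX2 replicate a or c and without TBX3 replicate a. EEF1B2 and EEF1E1 passed no test.

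EEF2K, the kinase that switches eEF2 off, fell with TBX2 and TBX3. Its level was 16.1, 14.5 and 12.0 CPM with TBX2 and 17.2, 15.7 and 15.9 with TBX3, against 17.3, 20.3 and 25.3 at the lowest, median and highest control. All 6 were below the controls, TBX3 replicate a by the least. Its log2 fold changes were -0.54 ± 0.12 (adjusted p 0.00157) and -0.37 ± 0.11 (adjusted p 0.0258), and the second had an adjusted p of 0.106 without TBX3 replicate c and of 0.105 against the EV controls alone. With TBX4 and TBX5 it read 19.4 to 23.6 CPM, at log2 fold changes of -0.01 and -0.01. The other modifiers add methyl groups to eEF1A or eEF2. Of them EEF1AKMT1 fell with TBX2, at 1.61, 1.91 and 1.46 CPM against 1.88, 2.47 and 3.91, by 0.69 ± 0.27 on the log2 scale (adjusted p 0.0602). It had 9 to 46 counts a library, replicate b overlapped the controls, and the call was lost without TBX2 replicate a or c, Ctl replicate b or EV replicate b.

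In 27 members no TBX comparison passed. Their log2 fold changes ran from -0.25 (EEF2KMT) to 0.32 (EIF2S3B, an eIF2 gamma copy) with TBX2, from -0.24 to 0.21 with TBX3, from -0.37 (EIF3C) to 0.17 with TBX4 and from -0.31 to 0.18 with TBX5. The 20 of them with a mean of at least 100 counts lay between -0.18 and 0.21 in the 4 comparisons, with SEs of at most 0.12. These 20 include the eIF2 subunits, EIF5B, which joins the ribosomal subunits, and EIF3D, EIF3H, EIF3I and EIF3J. A p above the threshold does not show that such a gene is unchanged.

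The 4 TBX groups differed from one another in 19 of the 59 members by the edgeR test among them, where 22.7% of all genes did. Members differing between pairs of TBX groups stood near the share of all genes in 4 of the 6 pairs: 10 for TBX2 and TBX3 (16.9%, all genes 15.5%), 7 for TBX3 and TBX4 (11.9%, all genes 9.97%), 4 for TBX3 and TBX5 (6.78%, all genes 7.41%) and 0 for TBX4 and TBX5 (all genes 0.539%). In that last pair 5 members had an unadjusted p under 0.05. The other pairs had 13 members for TBX2 and TBX4 (22.0%, all genes 12.3%) and 12 for TBX2 and TBX5 (20.3%, all genes 12.1%). EIF5 had the smallest adjusted p among the groups, 1.31e-05, and was higher with TBX2 than with TBX4 by 0.43 ± 0.07 and than with TBX5 by 0.47 ± 0.07 on the log2 scale. It was also higher with TBX3 than with TBX4 by 0.27 and than with TBX5 by 0.31, and between TBX2 and TBX3 it was not called. EEF2K was lower with TBX2 and with TBX3 than with TBX4 and TBX5, by 0.36 to 0.54 in size, with adjusted p from 0.00388 to 0.0918. EIF4B was lower with TBX2 than with TBX3, TBX4 and TBX5 by 0.36, 0.34 and 0.25 in size, and EEF1A1 likewise by 0.27, 0.38 and 0.27 in size. EIF1AX and EIF4G3, lower in all 4 comparisons, had adjusted p of 0.845 and 0.957 in the test among the groups.

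Ratios of related genes within a library do not depend on scaling. For 8 pairs and 4 TBX groups, the log2 ratio was compared with that of the controls by an exact two-sided permutation test of 3 against 6 libraries, which cannot go below 0.0238. No ratio passed after adjustment over the 32 comparisons, and the lowest adjusted p was 0.127. The log2 ratio of EEF1A2 to EEF1A1 was -5.62, -5.79 and -5.52 in the TBX2 libraries and -6.08, -5.91 and -6.21 with TBX3, against -6.56 to -6.34 in the controls, higher by 0.83 and 0.41 without overlap (exact p 0.0238 each). The ratio of EIF4G2 to EIF4G1 was 0.67, 0.59 and 0.67 with TBX2 against 0.18 to 0.41, higher by 0.34 (exact p 0.0238). The ratio of EIF4A2 to EIF4A1 was higher by 0.28 with TBX3 and that of EIF5A2 to EIF5A by 0.30 with TBX5, both at the same exact p of 0.0238. The ratio of EIF4G3 to EIF4G1 was lower by 0.15 in size with TBX3, also at an exact p of 0.0238. The ratio of EIF1B to EIF1 differed from the mean of the controls by -0.12 to 0.11, and its group means of -2.84 to -2.61 lay within the control range of -3.06 to -2.30.

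**Figure D4:**
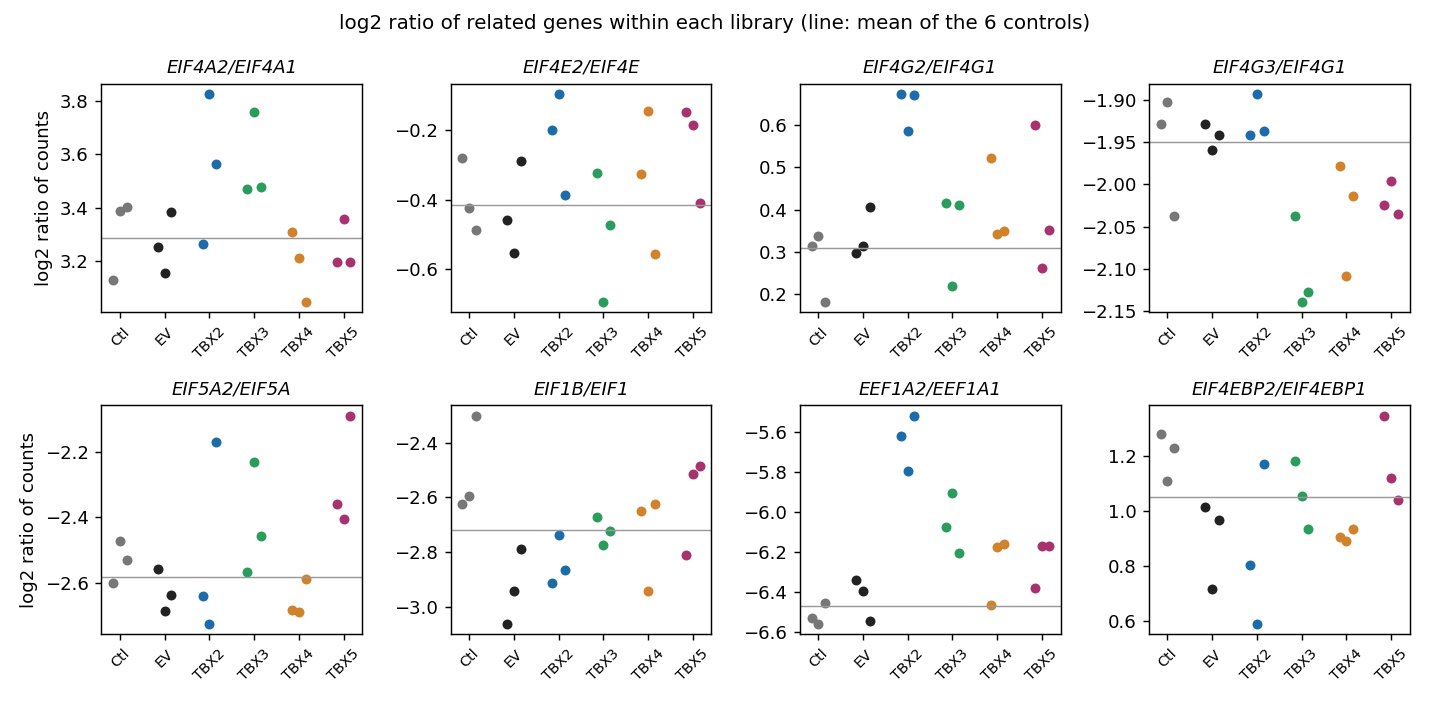
The log2 ratio of counts of 8 pairs of related genes in each library (points), by group, with the mean of the 6 controls as a line. Axes differ between panels and do not start at 0. The ratio of EEF1A2 to EEF1A1 lies above all controls in the 6 TBX2 and TBX3 libraries, and that of EIF1B to EIF1 overlaps the controls in every group.

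The controls themselves did not differ in these genes at the threshold. Between EV and Ctl, edgeR called 0 of the 59 members and DESeq2 0, where edgeR called 0.282% of all genes higher and 0.103% lower with EV, and 6 members had an unadjusted p under 0.05. By the smallest p in each direction, EIF5A and EIF3I were higher with EV by 0.16 ± 0.07 and 0.15 ± 0.07 on the log2 scale, with unadjusted p of 0.0261 and 0.0329. EIF4EBP2 and EIF4ENIF1 were at -0.16 ± 0.06 and -0.26 ± 0.11, with unadjusted p of 0.0216 and 0.0253. None had an adjusted p under 0.459.

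Other parts of the translation machinery gave a background for these values. Of all genes 15.6%, 6.40%, 6.07% and 6.12% fell with TBX2, TBX3, TBX4 and TBX5, and 17.0%, 8.47%, 6.97% and 6.55% rose. The 5 of 76 ribosomal protein genes lower with TBX4 and the 3 of 20 synthetases lower with TBX2 were near those shares. Of 76 ribosomal protein genes, 45, 30, 5 and 12 fell with TBX2, TBX3, TBX4 and TBX5, none rose, and the median log2 fold changes were -0.20, -0.16, -0.0039 and -0.12. Of 8 tested factor genes with known TOP mRNAs, 6, 3, 1 and 2 fell in the same order, and these are themselves members. The cytoplasmic aminoacyl-tRNA synthetases, which charge the tRNAs, went the other way with TBX2, where 10 of 20 rose and 3 fell. Among them CARS1 rose by 0.81 and AARS1 by 0.69, and with TBX3 by 0.32 and 0.19. With TBX3, 2 rose and 3 fell, with TBX4 none was called, and with TBX5 3 fell. Of 10 mitochondrial translation factors 5 rose and 2 fell with TBX2, 1 fell with TBX3, and 2 rose with each of TBX4 and TBX5. Of 8 release and recycling factors 2 fell with TBX2, 1 each fell with TBX3 and TBX4, and none was called with TBX5.

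The regulators of initiation moved in both directions, as all genes did. The shares of all genes that rose were 17.0%, 8.47%, 6.97% and 6.55% with TBX2, TBX3, TBX4 and TBX5. Those that fell were 15.6%, 6.40%, 6.07% and 6.12%. Of 19 regulators, 5 rose and 5 fell with TBX2, 4 rose and 1 fell with TBX3, 1 rose and 4 fell with TBX4, and 3 rose and 3 fell with TBX5. PPP1R15A and PPP1R15B, which bring the phosphatase to phosphorylated eIF2, rose with TBX2 by 0.79 and 0.41 and with TBX3 by 1.09 and 0.46, and the latter rose with TBX5 by 0.22. EIF2AK2, the double-stranded RNA kinase of eIF2, rose with TBX2 by 0.83 (adjusted p 4.95e-09) and lay at -0.13 to -0.01 elsewhere. The kinase EIF2AK1 fell with TBX2, TBX4 and TBX5, at -0.45, -0.27 and -0.26 (edgeR adjusted p 6.6e-06, 0.00302 and 0.00991). With TBX3 it lay at -0.15 and was not called. EIF2AK3 rose with TBX3 by 0.345 (edgeR adjusted p 0.0675) and was called in no other TBX comparison. EIF2AK4, the kinase that senses uncharged tRNA, which the study had also picked from these libraries, fell in all 4 comparisons by 0.20, 0.29, 0.21 and 0.21 on the log2 scale. The level of these kinases was measured as mRNA, and phosphorylation of eIF2 was not.

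**Figure D5:**
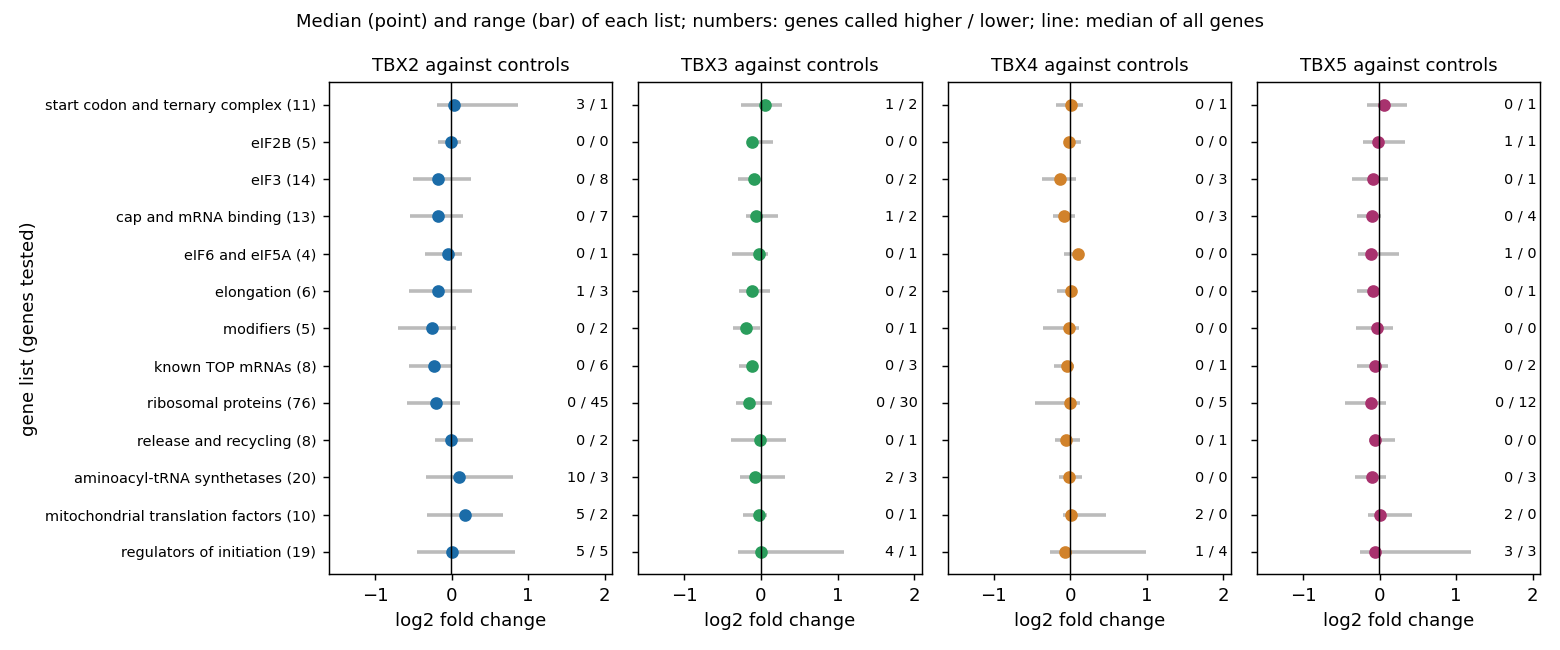
Median (point) and range (bar) of the log2 fold change of each gene list, with the number of genes tested in brackets, for each TBX group against the controls. Numbers at the right give genes called higher and lower, and the vertical line is the median of all genes. With TBX2 the eIF3, cap-binding, known TOP and ribosomal protein medians lie between -0.23 and -0.17, and the mitochondrial factor median at 0.18.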

How the data were processed

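The authors aligned paired-end reads of total RNA to GRCh37 with STAR 2.3.0 and deposited unnormalized counts of each Ensembl gene, made by featureCounts with default options. The members, gene lists and tests were chosen with earlier results of these data known. Symbols, positions and lengths came from GENCODE (GRCh37) and start sequences from RefSeq.

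Each TBX group was tested against the 6 controls with the quasi-likelihood test of edgeR 4.0.16 (R 4.3.3), with TMM scaling and Benjamini-Hochberg adjustment at 0.1. EV was tested against Ctl, and the TBX groups against each other in a fit of all libraries. SE was obtained by dividing the size of a log2 fold change by the root of its F. The 26 members named with full values were those called in 3 or more comparisons, the 3 largest changes in each direction of each TBX comparison, for EV against Ctl the 2 smallest p in either direction, those the study names, and the paralog pairs. Ratios used counts plus 0.5 and an exact permutation test in Python. Alternatives were DESeq2 1.42.0, its size factors, library totals, other filters, EV or Ctl alone, an FDR of 0.05, a single fit, the replicate letter as a block and each library left out. The edgeR fit was tested on simulated data.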

Additional observations from a re-analysis of the deposited data

Results flagged for a closer look

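Among the 6 controls, 34 sets of values were searched for a library far from the others (26 named members and 8 paralog ratios), of which chance flags about 1 in 20. EEF1A1 was highest in EV replicate c at 5725 CPM, with the next control at 5236 CPM. EIF1 was lowest in Ctl replicate c at 42.7 CPM, with the next at 64.7 CPM. Neither library was left out.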

How the results depend on the processing

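Scaling by library totals changed the most: it called 3, 0, 3 and 0 members for TBX2, TBX3, TBX4 and TBX5, and 0 differing among the TBX groups. It reversed the log2 fold changes of all 7 members called with TBX4, EIF1AX (0.117), EIF3A (0.0258), EIF3B (0.0891), EIF3K (0.0338), EIF4B (0.0507), EIF4EBP2 (0.0372) and EIF4G3 (0.0649), and with TBX5 of EIF5A2 (-0.0589), and 27 of the 52 members not called with TBX4 changed sign. With TBX5, 6 members were called at an FDR of 0.05, 6 by DESeq2 and 5 against Ctl alone. DESeq2, fitted to the 12 TBX libraries, called 12 differing among the TBX groups. Leaving out 1 library gave 3 to 8 members with TBX4 and 5 to 9 with TBX5. Of the 40 calls of named members, 11 were lost against EV alone, 9 against Ctl alone, 7 at an FDR of 0.05, 5 without a filter and 3 by DESeq2. With the replicate block, 26, 12, 6 and 8 members were called with TBX2, TBX3, TBX4 and TBX5, 0 between EV and Ctl and 18 among the TBX groups. Libraries of 1 letter did not deviate together (mean r 0.00043 over 45 pairs), so the letters were not taken as a pairing. The cause of these changes was not tested. Depth limits members near the floor, EIF3CL and EIF5AL1.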
